A study of Drosophila melanogaster with 3 samples.

Results

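The Krüppel-like factors of the fly beside *Klf15* are described here in adult nephrocytes. The members are *dar1*, *luna* and *cbt*, chosen by name, and their FlyBase identifiers gave 3 of the 17768 genes in the deposited tables. The control flies were females aged 4 days, kept at 25 °C on food with 6% sucrose, and carried *Hand*-GFP together with *Klf15*-Gal4 and UAS-RFP over the balancer CyO. Nephrocytes, the filtration cells of the fly, were sorted and sequenced as 3 libraries (replicates 1 to 3), each from its own 200 flies according to the Methods, and the notes speak of 100 to 200 nephrocytes. With this single condition the data allow no contrast between groups. Every SD given measures only the differences between these libraries. The p-values concern ratios between genes within these libraries, and the counting intervals concern single libraries. The cells had been gated as large and positive for both GFP and RFP, and *Klf15*-Gal4 drove the RFP. *Klf15* is therefore tied to the sort, and it serves only as a scale for the other factors. *luna* and *cbt* lie on chromosome 2, of which 1 copy was the balancer, and the effect of the balancer on their levels was not tested.

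Krüppel-like factors (KLF) and the related SP factors are transcription factors that bind GC-rich and CACCC sequences through a conserved block of C2H2 zinc fingers near the end of the protein. In flies, *Klf15* is required for nephrocytes to form, and its mammalian counterpart promotes podocyte differentiation. *dar1* is known for the growth of dendrites in multipolar sensory neurons, *luna* is the relative of mammalian KLF6 and KLF7, and *cbt* (cabut) is the relative of mammalian KLF10 and KLF11, with roles in dorsal closure and in the response to dietary sugar.

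The members differed widely in level. *cbt* was abundant at 104 ± 36.7 TPM (mean ± SD, n = 3 libraries), *luna* was scarce at 3.28 ± 1.13 TPM (SD, n = 3), and *dar1* had no count in any library. TPM, a share of all transcripts, is scaled by effective transcript length and by library, so that genes can be compared with one another within a library. Of the 3 members, 2 reached 1 TPM in every library, the threshold used here for a detected gene, against 40.5% of all listed genes. The third was at 0 counts throughout, as were 41.2% of all listed genes. The libraries held 7808930 to 8801238 expected counts, the reads that RSEM assigned to genes. Those of the members were whole numbers in all 3 libraries, as they are where reads are not divided with other genes.

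*cbt* was at 138, 65.0 and 108 TPM in libraries 1, 2 and 3. These values rested on 1939, 881 and 1510 expected counts. Library 1 was highest and library 2 lowest, with no overlap of their 95% counting intervals (exact Poisson, 132 to 144 TPM in library 1, 60.7 to 69.4 in library 2 and 103 to 114 in library 3). The intervals cover counting error only, since the reads come from amplified cDNA. By mean TPM *cbt* ranked 1165th of 17768 genes, within the top 6.56%, and in single libraries it ranked between 910th and 1598th. In the BDGP6.54 annotation *cbt* (FBgn0043364) lies on chromosome 2L from 476446 to 479688 on the minus strand and has 3 transcripts. Its span overlaps that of *ush*, a gene on the opposite strand at 96.4, 43.7 and 111 TPM, but the exons of the 2 genes share 0 bases.

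*luna* was at 3.48, 2.07 and 4.30 TPM in libraries 1, 2 and 3, from 92, 62 and 118 expected counts. Library 2 was again the lowest, and its counting interval (1.59 to 2.65 TPM) lay below those of library 1 (2.80 to 4.27) and library 3 (3.56 to 5.15), which overlapped. *luna* ranked 6595th by its mean. For *luna* 3 counts were worth at most 0.113 TPM, far below each of its values. *luna* (FBgn0040765) lies on chromosome 2R from 10977956 to 11116378 on the minus strand, a span of 138423 bases. Of the genes annotated inside this span, *CG43188* and *lncRNA:CR46409* were both at 0 TPM in every library and share no exon bases with it. A transposable element annotated on the opposite strand shares 413 bases with the exons of *luna*, and no level was available for it. The *jockey* and *roo* elements in the span share 0 bases with these exons. Whether reads from the overlapping element added to the counts of *luna* was not tested.

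*dar1* had 0, 0 and 0 expected counts. A count of 0 allows up to 3 counts, or 0.121, 0.122 and 0.121 TPM in libraries 1, 2 and 3, so levels up to these could have gone unseen at this depth. *dar1* (FBgn0263239) lies on chromosome 3L from 3626352 to 3653442 on the plus strand, with 1 transcript of 3526 bases in 6 exons. Its exons share 38 bases with *CG10862* on the opposite strand, which was also at 0 TPM throughout. Neuronal markers other than *elav* had at most 3 counts in any of the same libraries. Of the 6 neuronal markers, none reached 1 TPM in every library, beside 40.5% of all listed genes. *futsch* and *Appl* had no counts, *brp* had 2 counts in each library, and *Syt1* had 1 count in all. The list summed to between 1.00 and 1.98 TPM, most of it from *elav* at 1.23, 0.87 and 1.95 TPM. Without replicate 2, 1 of the 6, *elav*, reached the threshold.

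**Figure D1:**
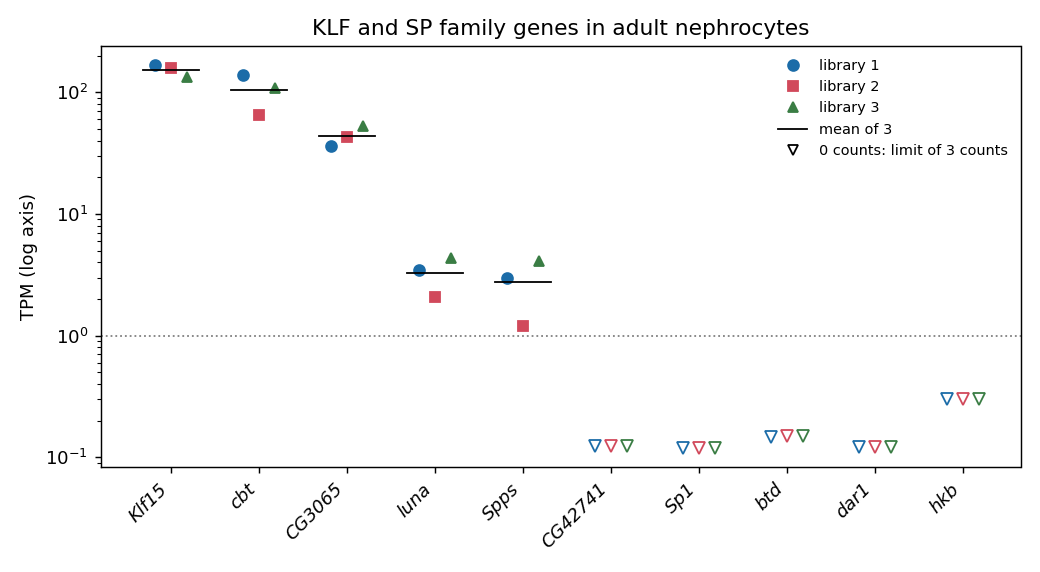
TPM on a log axis for the 10 KLF and SP family genes in libraries 1, 2 and 3, with a line at the mean of 3. Open triangles mark genes with 0 counts at the TPM that 3 counts would give, and the dotted line is 1 TPM. *cbt* lies between 65.0 and 138 TPM, *luna* between 2.07 and 4.30 TPM, and *dar1* has 0 counts.

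Set within the whole family, *cbt* had rank 2 and *luna* rank 4 among 10 genes. *Klf15* led, at 167, 159 and 133 TPM (153 ± 17.8, SD, n = 3). *CG3065* lay between *cbt* and *luna*, at 36.5, 42.9 and 53.1 TPM (44.1 ± 8.38, SD, n = 3). *Spps*, an Sp1-like factor that acts at Polycomb response elements, came after *luna*, at 2.97, 1.19 and 4.09 TPM (2.75 ± 1.46, SD, n = 3). The remaining 5 of the 10 genes had no counts in any library, beside 41.2% of all listed genes. These 5 were *dar1*, *CG42741*, the embryonic and appendage patterning genes *Sp1* and *btd*, and the gap gene *hkb*. The summed TPM of the family was 348, 270.2 and 303 in libraries 1, 2 and 3. *Klf15* made up 50.3 ± 7.70% of it, *cbt* 33.1 ± 8.10%, *CG3065* 14.6 ± 3.69% and *luna* 1.06 ± 0.33% (SD, n = 3). The share of *cbt* moved most in points, from 39.6% in library 1 to 24.0% in library 2.

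*cbt* exceeded *luna* in every library, 39.6-fold, 31.4-fold and 25.2-fold in libraries 1, 2 and 3. The log2 ratio was 4.98 ± 0.33 (SD, n = 3), many times its spread. *Klf15* was the higher of *Klf15* and *cbt* by 1.21-fold, 2.45-fold and 1.23-fold. On the log2 scale the ratio averaged 0.62 ± 0.58 (SD, n = 3), close to its spread, and 0.29 without replicate 2. In CPM, which is not corrected for length, *cbt* was the higher, at -0.60. The levels of *cbt* and *Klf15* overlapped across libraries, since *cbt* in library 1 was above *Klf15* in library 3. *Klf15* exceeded *luna* 48.1-fold, 76.9-fold and 31.0-fold (log2 ratio 5.60 ± 0.66, SD, n = 3). Against the floor of *dar1*, the measured TPM of *luna* was at least 28.8-fold, 17.0-fold and 35.5-fold higher in libraries 1, 2 and 3. That of *cbt* was at least 1143-fold, 534-fold and 893-fold higher. These folds leave out the counting error of *luna* and *cbt* themselves. For *dar1* with 0.1 TPM added to both genes, the log2 ratios were 5.02 ± 0.52 for *luna*, 9.95 ± 0.55 for *cbt* and 10.58 ± 0.17 for *Klf15* (SD, n = 3), values that depend on the added amount. For each of the 6 pairs among *dar1*, *luna*, *cbt* and *Klf15*, the direction was the same in 3 of 3 libraries and the exact two-sided sign-flip permutation test gave p = 0.25 (adjusted p = 0.25 over the 6 pairs, Benjamini-Hochberg), the smallest p it can give with 3 libraries.

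Neighbours in the order of levels were further apart in some places than in others. *cbt* was above *CG3065* by 3.78-fold, 1.52-fold and 2.04-fold (log2 ratio 1.18 ± 0.67, SD, n = 3), and *CG3065* was above *luna* by 10.5-fold, 20.7-fold and 12.3-fold (3.80 ± 0.51). *luna* and *Spps* did not differ beyond their spread, with a log2 ratio of 0.37 ± 0.38 (SD, n = 3) and ratios of 1.17, 1.74 and 1.05. These 3 neighbour ratios were not tested.

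**Figure D2:**
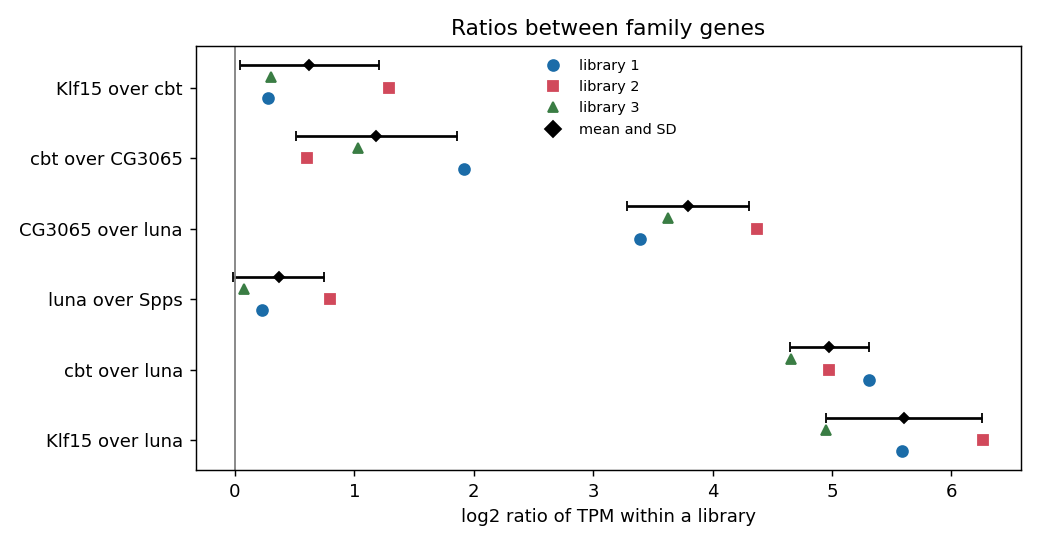
Log2 ratio of TPM between pairs of family genes, within libraries 1, 2 and 3, with the mean and SD in black. Both ratios to *luna* at the bottom lie above 4, while *Klf15* over *cbt* and *luna* over *Spps* have means within about 1 SD of 0 (0.62 ± 0.58 and 0.37 ± 0.38).

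**Figure D3:**
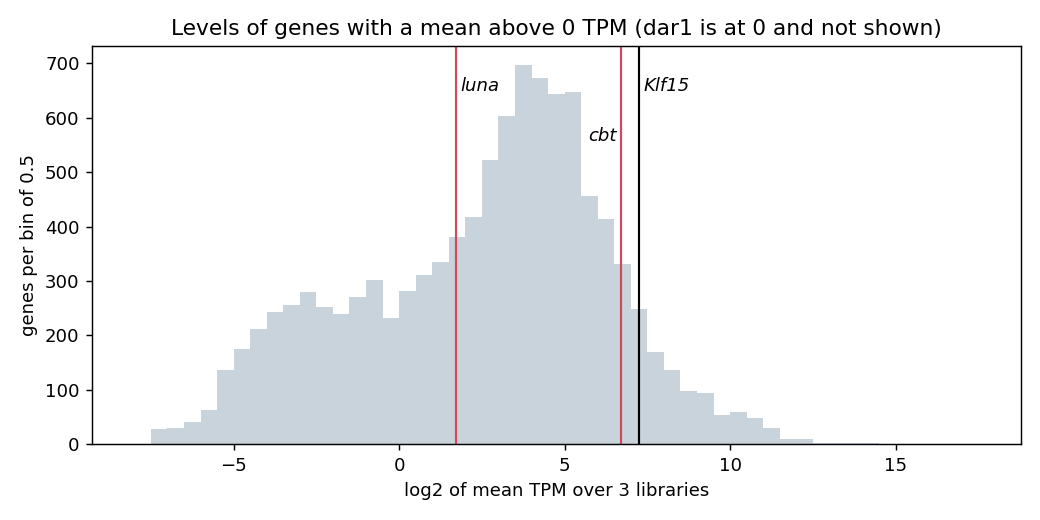
Number of genes in bins of 0.5 of log2 mean TPM, for genes with a mean above 0 TPM. Red lines mark *luna* at 3.28 TPM and *cbt* at 104 TPM, and the black line marks *Klf15* at 153 TPM. *cbt* and *Klf15* lie on the upper slope and *luna* below the main peak.

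The length that RSEM lists for a gene is the mean over its transcripts, weighted by their estimated shares, and it bounds which isoforms the estimates favoured. For *cbt* the listed lengths were 2099, 2049 and 2095 bases. Its transcripts in the annotation are cbt-RA at 2041 bases, cbt-RC at 2361 and cbt-RB at 3243. A mean so close to 2041 requires a cbt-RA share of 81.8% to 95.2% in library 1, 97.5% to 99.3% in library 2 and 83.1% to 95.5% in library 3. cbt-RA is the transcript with the longer reading frame, of 428 residues, and the other 2 encode 347 residues. cbt-RB, which has 1 exon and the longest 5′ UTR (1658 bases), could hold at most 4.85%, 0.67% and 4.51%.

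For *luna* the listed lengths were 3735, 4238 and 3881 bases. All 3 transcripts encode 570 residues and differ in their UTRs: luna-RD has 3037 bases, luna-RB 3608, and luna-RC 8446 bases with a 3′ UTR of 5342. The share of luna-RC lay between 2.63% and 12.9% in library 1, 13.0% and 22.2% in library 2, and 5.64% and 15.6% in library 3. The isoform with the long 3′ UTR was thus a minority estimate in each library. These ranges take the transcript lengths of the annotation used here, which matched the files for 10278 of 10303 genes with 1 transcript, and the error of the isoform estimates is not known from gene totals.

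Both detected members were lowest in library 2, against 49.0% of the 7250 genes with at least 10 expected counts in every library. Relative to the average of the other 2 libraries, the log2 level in library 2 was -0.92 for *cbt* and -0.91 for *luna*. The median over all 7250 genes was -0.15. In CPM, which is not corrected for length, the values were -0.80 for *cbt*, -0.59 for *luna* and 0.014 for that median. The listed length of *luna*, by which its TPM is scaled, was greatest in library 2. Library 2 held less of long transcripts as a whole. Genes were divided into 8 groups by transcript length, and the median log2 ratio ran from 0.12 in the shortest group to -0.93 in the longest. The longest group spans 4366 to 33836 bases, with quartiles of -1.32 and -0.51. Some of its genes went the other way, such as *Cubn* at 0.39. *luna*, in length group 7, differed by -0.27 from that group's median of -0.64, and 27.3% of its 906 genes were lower still. *cbt*, in length group 5, was further from its group, with a difference of -0.77 from a median of -0.15, and 7.40% of its 906 genes were lower. After a smooth trend on transcript length was taken out of every library, *luna* was at -0.21 and *cbt* at -0.80. The short *Klf15* transcript, with 1032 bases, was at 0.08, and *CG3065* was at -0.06. The muscle and heart markers were lowest in library 2 too, all 6 of them, with sums of 4992, 2631 and 8441 TPM in libraries 1, 2 and 3. The sums of the glial, hemocyte, midgut, neuronal, tracheal and ovary markers were lowest in library 2 as well. They were 143, 88.8 and 203 TPM for the glial genes, 163, 60.7 and 163 TPM for the hemocyte genes and 337, 49.0 and 279 TPM for the midgut genes, and no more than 5.26 TPM in any library for the last 3 lists. Single genes made up most of some sums, *srp* for the hemocytes (1 of the 3 genes compared there was lowest in library 2) and *pros* for the midgut. The fat body sum, at 9.53, 13.8 and 302 TPM, was lowest in library 1 and rested on *Obp99b*, at 8.73, 12.8 and 299 TPM. The nephrocyte markers were mixed. Their sum, most of it from *Amnionless* and *Hand*, was 11732, 12170 and 10852 TPM, while *sns*, *kirre* and *pyd*, 3 of the 7, were lowest in library 2. The part of other cells in the values of *cbt* and *luna* was not tested.

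**Figure D4:**
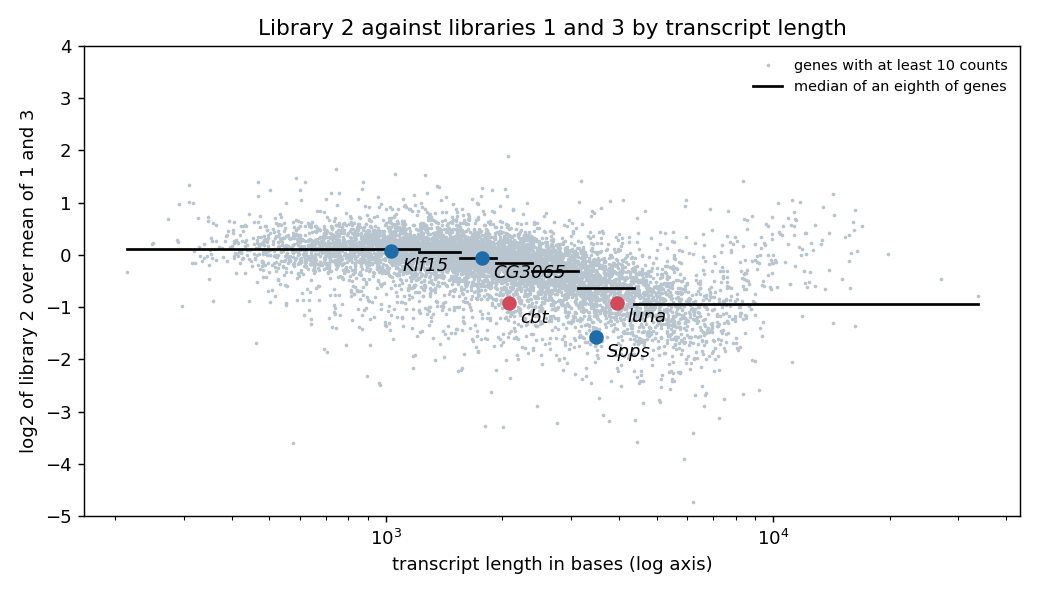
Log2 TPM in library 2 relative to the average of the other 2 libraries, against transcript length (log axis), for 7250 genes (grey points), with the median of each of 8 length groups as a black line. The members *cbt* (-0.92) and *luna* (-0.91) are in red, and *Klf15*, *CG3065* and *Spps* in blue. *cbt* lies well below the line of its length group and *luna* nearer to its own.

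The coefficient of variation of TPM over the 3 libraries was 35.4% for *cbt* and 34.4% for *luna*, and 11.6% for *Klf15*. The common biological coefficient of variation from edgeR over 7258 genes was 25.7%, and 18.7% without replicate 2. That is a modelled measure with counting noise taken out, so it cannot be set against the values above. Estimated by edgeR for single genes, it was 28.2% for *cbt*, 25.7% for *luna* and 23.2% for *Klf15*. These estimates are drawn towards those of other genes, so with 3 libraries they may understate differences between genes. For *Klf15* the estimate was above its coefficient of variation of 11.6%. How the members rank in spread among all genes was not tested.

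*cbt* is one of the genes that fly cells switch on quickly after a stimulus, and other genes of this kind were measured in the same libraries. Of 7 such genes, 5 reached 1 TPM in every library, beside 40.5% of all listed genes. *Jra* and *kay*, the fly Jun and Fos genes, led at 284 ± 67.0 and 125 ± 51.5 TPM, and *puc*, the phosphatase induced by Jun kinase signalling, was at 61.8 ± 15.2 TPM (SD, n = 3). *Atf3* and *Ets21C* were at 5.07 ± 1.37 and 8.27 ± 2.09 TPM. *Hr38* and *sr*, relatives of the mammalian NR4A and EGR genes, were below the threshold with means of 0.087 and 0.60 TPM. *kay* was close to *cbt*, at 1.22-fold, 1.05-fold and 1.28-fold its TPM in libraries 1, 2 and 3. All 6 genes of the list that had enough counts to be compared were lowest in library 2, with log2 ratios from -1.17 for *kay* to -0.48 for *Jra* and a median of -0.62, beside 49.0% and -0.15 over all 7250 genes. Against the median of their length groups, *kay*, *Jra* and *puc* differed by -0.53, -0.54 and -0.36. *sr*, at -0.82, was also below its group's median of -0.64. *Atf3*, at -0.49, and *Ets21C*, at -0.57, were above their group medians of -0.93 and -0.64.

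Genes of the pathway that ties *cbt* to sugar were expressed throughout. In flies the sugar sensor formed by Mondo and its partner Mlx, encoded by *bigmax*, activates *cbt* and *sug*. All 7 genes of this list reached 1 TPM in every library, beside 40.5% of all listed genes. *Mondo* was at 33.0 ± 8.25 TPM, *bigmax* at 40.2 ± 1.98 TPM and *sug*, a zinc finger factor, at 50.8 ± 13.1 TPM (SD, n = 3). *cbt* was above *sug* by 3.72-fold, 1.25-fold and 1.71-fold, and the order of the libraries differed, since *sug* was lowest in library 1. *Pepck1*, a gluconeogenic gene that Cabut represses in flies, was at 4.22 ± 1.23 TPM, with expected counts that were not all whole, and its paralog *Pepck2* at 51.4 ± 6.75 TPM (SD, n = 3). The lipogenic genes *FASN1* and *ACC* were at 7.64 ± 2.59 and 4.63 ± 1.98 TPM. As all libraries came from flies on the same food, no response to sugar could be measured.

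Co-regulators known to work with KLF and SP proteins were also expressed. Of 6, 5 reached 1 TPM in every library, beside 40.5% of all listed genes. They were led by *CtBP* at 115 ± 27.9 TPM and *HDAC1* at 31.0 ± 6.16 TPM (SD, n = 3). *Sin3A* and *Sap130*, parts of the Sin3 histone deacetylase complex, were at 9.82 ± 4.08 and 10.3 ± 5.16 TPM. *nej*, the fly CBP, lay at the threshold, at 0.95, 1.18 and 0.87 TPM. Dynein and microtubule severing genes, which studies of fly neurons have tied to *dar1*, were detected for 8 of 9, beside 40.5% of all listed genes. Many of them are used by most cells. *ctp* and *robl*, dynein light chains, led at 259 ± 31.1 and 216 ± 50.8 TPM, and *spas*, which encodes Spastin, was at 9.04 ± 3.52 TPM (SD, n = 3). *kat-60L1* had at most 3 counts in any library. Over the detected genes of the tables, the median of mean TPM was 20.9, beside medians of 61.8 for the rapid response list, 33.0 for the sugar list, 19.4 for the co-regulators and 60.7 for the dynein and severing list.

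**Figure D5:**
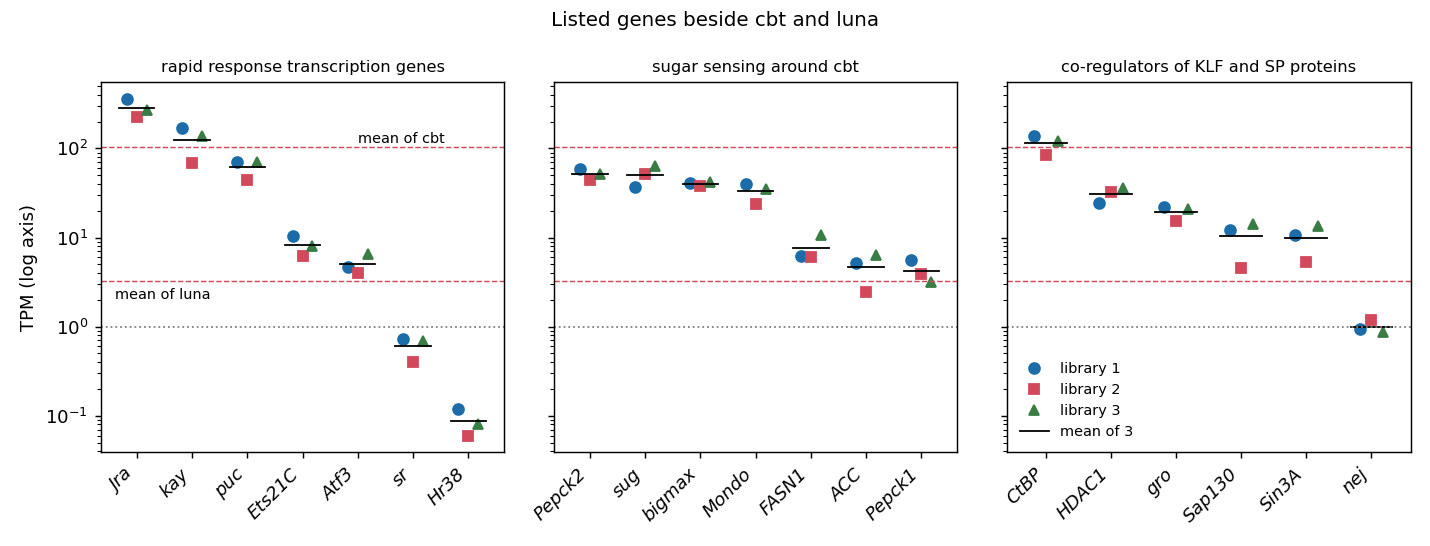
TPM on a log axis in libraries 1, 2 and 3 for rapid response genes, genes around sugar sensing and *cbt*, and co-regulators, with a line at the mean of 3. Dashed lines mark the means of *cbt* (104 TPM) and *luna* (3.28 TPM), and the dotted line is 1 TPM. *kay* and *CtBP* lie near the *cbt* line, and *nej* lies at 1 TPM.

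The genes with the most similar levels over the 3 libraries were sought by Euclidean distance of log2(TPM + 1) among 7249 others. For *luna* they were *ckn*, *Ca-beta* and *CG34396*, at distances of 0.086, 0.094 and 0.11. For *cbt* they were *vari*, *Su(dx)* and *GstD2*, at 0.18, 0.23 and 0.25. *vari*, for example, was at 130.4, 71.9 and 104 TPM. Over 3 libraries such likeness describes level and little else. For *dar1*, with no counts, no such genes were named.

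The identity of the sorted cells was checked against marker genes. All 7 nephrocyte markers were detected, summing to between 10852 and 12170 TPM, with *Amnionless* and *Hand* in the lead, although *Hand* and *Klf15* also drove the reporters of the sort. Markers of other cells reached 1 TPM in every library for 6 of 6 muscle and heart genes, 2 of 3 glial genes (*moody* and *nrv2*, with *repo* at no more than 3 counts), 2 of 5 hemocyte genes (*srp* and *He*, with *Hml* and *Pxn* at no more than 1 count), 2 of 5 midgut genes (*pros* and *Amy-p*), 1 of 5 fat body genes (*Obp99b*), 0 of 4 ovary genes and 0 of 3 tracheal genes. No counts were found in any library for the midgut genes *alphaTry*, *betaTry* and *esg* and the fat body genes *Lsp2* and *Fbp1*. The ovary gene *nanos* and the tracheal gene *verm* had no counts either. Over all listed genes, 40.5% reached 1 TPM in every library and 41.2% had no counts in any. Marker counts such as 2 of 5 are near that first share. How much of the *cbt* and *luna* RNA came from cells other than nephrocytes was not tested. In bulk RNA, fewer cells of a type and less RNA per cell cannot be told apart.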

How the data were processed

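RNA of sorted adult nephrocytes was amplified as cDNA with a low-input kit and sequenced. The authors aligned the reads by STAR 2.7.5c, and RSEM 1.3.3 estimated gene levels on FlyBase annotation of BDGP Release 6. For strand setting and read filters the sources used here say nothing. Expected counts, as deposited, were not normalized, and RSEM divides among genes the reads that fit several. The deposited TPM and FPKM values were made by RSEM from effective length and depth. Transcript lengths were used as deposited by the authors.

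The members and gene lists were chosen with earlier results of these data known. A list entry found under a synonym was matched through a RefSeq gene table (*bigmax*, *nanos*, and an old name of *CG42741* that merged with it). Symbols came from a name table for 17670 of 17768 IDs and by transcript ID for 57 more, leaving 41. Coordinates are from BDGP6.54 (Ensembl release 115). Named genes are all family genes, 2 to 4 leading members of each list by mean TPM, markers at 0 throughout, and the 3 genes nearest each member. *Sap130*, *repo*, *Hml*, *Pxn*, *ush* and the genes around *luna* and *dar1* were named after their values were seen, as were further list members given with values.

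Ratios of TPM were taken within libraries and tested by exact sign-flip permutation. The spread was estimated with edgeR 4.0.16 on expected counts rounded to whole numbers, at least 10 in every library. The length trend was removed by lowess (fraction 0.3). Other settings tried were FPKM, CPM, scaling by DESeq2 1.42.0 or TMM, removal of ribosomal RNA and mitochondrial genes from TPM, other thresholds and pseudocounts, medians, and each replicate left out. The 3 libraries differed beyond sampling noise, with chi-square per degree of freedom of 27.0 to 65.0. The procedures were tested on simulated data. Protein and promoter sequences were not used here. Software was statsmodels 0.14.6, scipy 1.17.1, pandas 2.3.3 and numpy 2.4.6 under Python 3.11.15, and R 4.3.3.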

Additional observations from a re-analysis of the deposited data

How the results depend on the processing

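Of 30 alternatives for levels and ranks of *luna*, *cbt* and *Klf15*, 27 stayed within 1 SD. These include the medians and the means with a replicate left out, which cannot leave 1 SD with 3 libraries. *dar1*, at 0 counts, could not move and is not counted. The exceptions were the ranks of *luna* and *Klf15* in CPM, which is not corrected for length (5540th and 1512th), and *Klf15* at 179.6 TPM without mitochondrial and ribosomal RNA genes. Leaving out each replicate, *cbt* ranged from 86.6 to 123 TPM and *luna* from 2.77 to 3.89 TPM. Log2 ratios among *luna*, *cbt* and *Klf15* kept their direction in 14 of 15 alternatives. Only CPM and removal of the length trend could have reversed them. FPKM and added pseudocounts keep the direction within a library, so those alternatives could not fail. Ratios to *dar1*, and ratios with a replicate left out, could not reverse either and are not counted. *Klf15* over *cbt* reversed to -0.60 in CPM, where the shorter *Klf15* transcript gives fewer reads, and ranged from 0.29 to 0.80 when each replicate was left out. With 2 libraries the smallest p is 0.5. At 5 TPM in every library 1 of the 3 members, *cbt*, was detected, beside 5596 of all 17768 listed genes. With the trend on length removed, the log2 ratio of library 2 became -0.21 for *luna* and reversed for *Klf15* (-0.041) and *CG3065* (0.0044), while the median over all genes became -0.0042. In CPM it reversed for *CG3065* (0.11) and for that median (0.014). These values near 0 have no settled direction. Lists of markers were also counted with each replicate left out, chosen after seeing the data. Without replicate 2, *elav* and the tracheal marker *btl* passed the threshold. No paired analysis was possible because the series holds 1 group. Depth limits *dar1*, whose 0 counts allow up to 3.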
